A study of Canis lupus familiaris with 34 samples.

Results

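The endothelin system was examined in mitral valve RNA of 34 dogs through 7 genes: the ligands EDN1, EDN2 and EDN3, the receptors EDNRA and EDNRB, and the converting enzymes ECE1 and ECE2. The genes were taken by symbol from a count table of 23768 features that carry 22035 symbols, in which these 7 symbols are listed with 12 features. The canine RefSeq feature was used where a symbol also had a human XenoRefSeq feature, which left 7 features, and all 7 were counted in every dog and passed the filter on low counts.

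All dogs were Cavalier King Charles Spaniels, a breed prone to myxomatous mitral valve disease (MMVD), and each gave 1 poly-A RNA library. The 10y-noCHF group (10 females, 9 males) had not developed congestive heart failure (CHF), and the 10y-MMVD-CHF group (6 females, 9 males) had CHF caused by MMVD. Both groups were privately owned dogs of about 10 years that were sampled at euthanasia. Nearly all dogs of the 10y-noCHF group had MMVD at an earlier stage, so the comparison is between stages of 1 disease and not between diseased and healthy valves.

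Endothelins are short vasoactive peptides that are cut from larger precursors, first by furin-type proteases and then by the membrane-bound converting enzymes. In vessels and endocardium EDN1 is made mainly by endothelial cells and acts on neighbouring cells through EDNRA, which drives contraction, growth and matrix synthesis, and through EDNRB, which also clears the peptide and triggers release of nitric oxide from endothelium. EDN3 binds EDNRB by preference and is best known for its part in neural crest development.

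Counts summed over all features were 48784642 to 81843830 per library (median 59645613) without CHF and 46185256 to 82361245 (median 62167469) with CHF. These sums are not numbers of reads, because mates were counted separately and a read was counted for every feature it overlapped. Markers of valve interstitial cells, the fibroblast-like cells of the leaflet, were abundant in every dog, with a mean over 8 genes of 10.13 to 11.36 on the log2 scale of CPM, counts scaled to a common library size. The mean over 12 cardiomyocyte markers ran from -0.02 to 10.56 on the same scale, so the amount of heart muscle RNA differed widely between samples. It had a wide gap between 3.96 and 5.51, with 11 dogs below it and 23 above it, of which 13 of 19 were 10y-noCHF and 10 of 15 were 10y-MMVD-CHF. Dog CAV1047 had the highest cardiomyocyte mean and CAV614 the highest mean of red blood cell markers (3.43). These dogs, both 10y-MMVD-CHF, stood apart: over 18419 features their highest correlation of counts with any other dog was 0.923 for CAV1047 and 0.842 for CAV614, against at least 0.938 for the rest. Results that turned direction without them are given both ways. The labels give no sequencing batch.

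EDN1 lies on chromosome 35 (canFam4, 13110982 to 13117475, plus strand), EDN2 and EDNRA on chromosome 15 (1717916 to 1724224 and 46175033 to 46225816, both plus strand), EDN3 on chromosome 24 (44781710 to 44800349, plus strand) and EDNRB on chromosome 22 (31507051 to 31526887, minus strand), with coordinates as in the count table. These 5 genes were counted over canine exons only, with 1948 bases for EDN1, 1199 for EDN2, 1910 for EDN3, 1288 for EDNRA and 1344 for EDNRB. ECE1 (chromosome 2, 77134741 to 77195063, plus strand) and ECE2 (chromosome 34, 17330483 to 17344440, plus strand) were listed only as human alignments. Each was counted over the whole span of its alignment with introns, 60323 and 13958 bases. The canine RefSeq gene of ECE2 runs from 17312508 to 17345102, so the ECE2 feature covered only a part of it. The exons held 90.5% of the counts of the span feature for EDN1 and 94.5% for EDN2, but 37.6% for EDNRA and 31.8% for EDNRB. Levels of ECE1 and ECE2 were therefore not compared with those of the exon-counted genes.

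Among the 5 genes counted over exons, the receptor EDNRA had the highest mean level per length, 7.43 ± 4.7 CPM per kilobase (SD, n = 34), followed by EDN1 with 6.04 ± 2.1 and EDNRB with 4.65 ± 1.75. EDN3 and EDN2 were lower, at 1.1 ± 0.403 and 0.913 ± 0.628 CPM per kilobase. EDNRA exceeded EDN1 in 18 of 34 dogs and EDN1 exceeded EDNRB in 22 of 34, so neighbours at the top of this order were not separated beyond the spread between dogs. EDNRB was above EDN3 in 34 of 34 dogs, with a median ratio of 3.95. EDN3 was above EDN2 in 23 of 34 dogs. EDN1 was thus the main ligand transcript: it was above EDN2 and above EDN3 in all 34 dogs, with a median ratio to EDN3 of 5.57 in the 10y-noCHF and 5.59 in the 10y-MMVD-CHF group. Its median ratio to EDN2 was 8.68 (3.39 to 198) without and 4.86 (1.93 to 34.7) with CHF, with overlapping ranges and no test. The order depended on the feature used. Over the human spans, which include introns, EDN1 had a mean of 2.06, EDNRB of 0.837 and EDNRA of 0.243 CPM per kilobase. There EDN2 was above EDN3 in 23 of 34 dogs.

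Over exons, EDNRA was above EDN1 in 6 of 19 10y-noCHF dogs and in 12 of 15 10y-MMVD-CHF dogs. No test was run on this count, and it depends on the features and lengths used. Over the human spans the mean of EDNRA was 0.243 and that of EDN1 2.06 CPM per kilobase. The ratio of EDNRA to EDNRB per length had a median of 1.33 (0.582 to 2.87) in the 10y-noCHF group and 1.52 (0.906 to 2.77) in the 10y-MMVD-CHF group, with overlapping ranges.

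**Figure D1:**
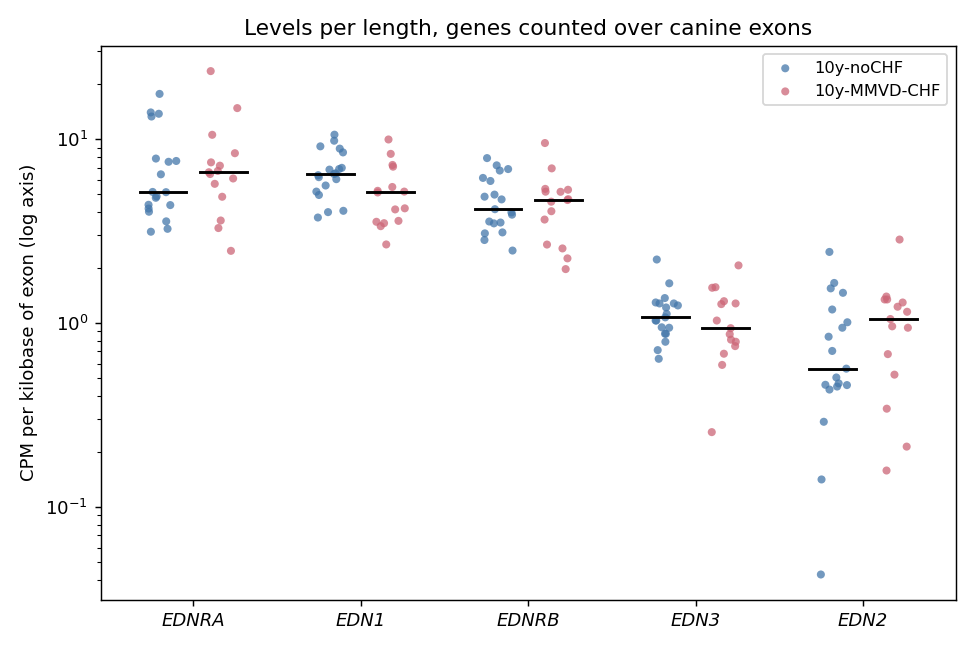
CPM per kilobase of exon (log axis) of the 5 genes counted over canine exons, 1 point per dog, with 10y-noCHF in blue, 10y-MMVD-CHF in red and black lines at the group medians. EDNRA, EDN1 and EDNRB overlap at the top, and EDNRB lies above EDN3 in all 34 dogs.

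The study asked which transcripts differ between valves of dogs with and without CHF. None of the 7 genes passed the false discovery rate (FDR) of 0.1 in edgeR, where 23 of 19568 features (0.118%) did. EDN1 alone had an unadjusted p below 0.05, that is 1 of 7 genes, against 1234 of 19568 features (6.31%). It was lower in CHF, and the other 6 genes had intervals that included no difference. In bulk tissue, fewer cells of a type and less RNA per cell cannot be told apart.

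For the ligand EDN1, CPM in the 19 10y-noCHF dogs ran from 7.3 to 20.6 with a median of 12.6, and in the 15 10y-MMVD-CHF dogs from 5.21 to 19.4 with a median of 9.99. The groups overlapped over most of their range, with 5 CHF dogs below the lowest dog without CHF and 4 of 15 above the median of that group. The means were 13 ± 3.81 (SD, n = 19) and 10.2 ± 4.03 CPM (SD, n = 15). The log2 fold change was -0.40 (SE 0.16, 95% interval -0.72 to -0.07, p = 0.018, FDR = 0.662), a ratio of 0.758. EDN1 therefore did not pass the test over all features, although its interval lay below 0. Its direction was the same when any 1 dog was left out (-0.47 to -0.35), with unadjusted p from 0.00423 to 0.0358. In females the log2 fold change was -0.54 (FDR = 0.422) and in males -0.28 (FDR = 1), and the difference between the sexes was 0.26 (95% interval -0.39 to 0.91, FDR = 0.979). The 6 females with CHF lay close together, from 6.92 to 10.2 CPM, while the 9 males with CHF covered 5.21 to 19.4 CPM.

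EDN2, a ligand that binds both receptors as EDN1 does, had the lowest mean of the ligands over exons. It also had the widest spread of the ligands, with a coefficient of variation of 73.8% without and 63.7% with CHF. Its counts per dog were 4 to 284, and its CPM ran from 0.0514 to 2.92 (median 0.677) in the 10y-noCHF and from 0.189 to 3.41 (median 1.26) in the 10y-MMVD-CHF group. Above the median of the 10y-noCHF group were 11 of 15 CHF dogs, but the log2 fold change of 0.27 had a 95% interval of -0.47 to 1.01 (FDR = 0.954). EDN3 had 1.22 to 4.23 CPM (median 2.05) without and 0.487 to 3.93 CPM (median 1.79) with CHF, and a log2 fold change of -0.12 (95% interval -0.51 to 0.27, FDR = 0.961). Its lowest value was that of CAV1047, with 19 counts.

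The receptors overlapped between the groups over nearly their whole range. EDNRA had 4.04 to 22.7 CPM (median 6.63) without CHF and 3.18 to 30.2 CPM (median 8.51) with CHF, and its log2 fold change was 0.17 (95% interval -0.39 to 0.72, FDR = 0.962). The highest dog was CAV1047, and without CAV1047 and CAV614 the log2 fold change was -0.03. EDNRB had 3.33 to 10.6 CPM (median 5.59) without and 2.64 to 12.8 CPM (median 6.27) with CHF, and a log2 fold change of -0.03 (95% interval -0.40 to 0.35, FDR = 0.991). The exons of EDNRB share 63.4% of their bases with EDNRB-AS1 on the opposite strand, and without strand in the counting their reads cannot be told apart.

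ECE1, the main enzyme that produces active EDN1, had the narrowest spread of the 7 genes, with a coefficient of variation of 17.9% without and 25.3% with CHF. Its CPM ran from 220 to 415 (median 296) without CHF and from 208 to 542 (median 308) with CHF. The log2 fold change was 0.14 (95% interval -0.07 to 0.35, FDR = 0.87). ECE2, a related enzyme that works at acidic pH and is best known from neurons, ran from 0.174 to 15.1 CPM (median 3.35) without CHF and from 0.358 to 25.9 CPM (median 4.12) with CHF. The ends of the CHF range were the dogs CAV614 and CAV1047. Its log2 fold change of 0.39 (95% interval -0.52 to 1.30, FDR = 0.945) was -0.03 without both and -0.08 with the cardiomyocyte mean as a covariate. All bases of the ECE2 feature also belong to the read-through feature EEF1AKMT4-ECE2.

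**Figure D2:**
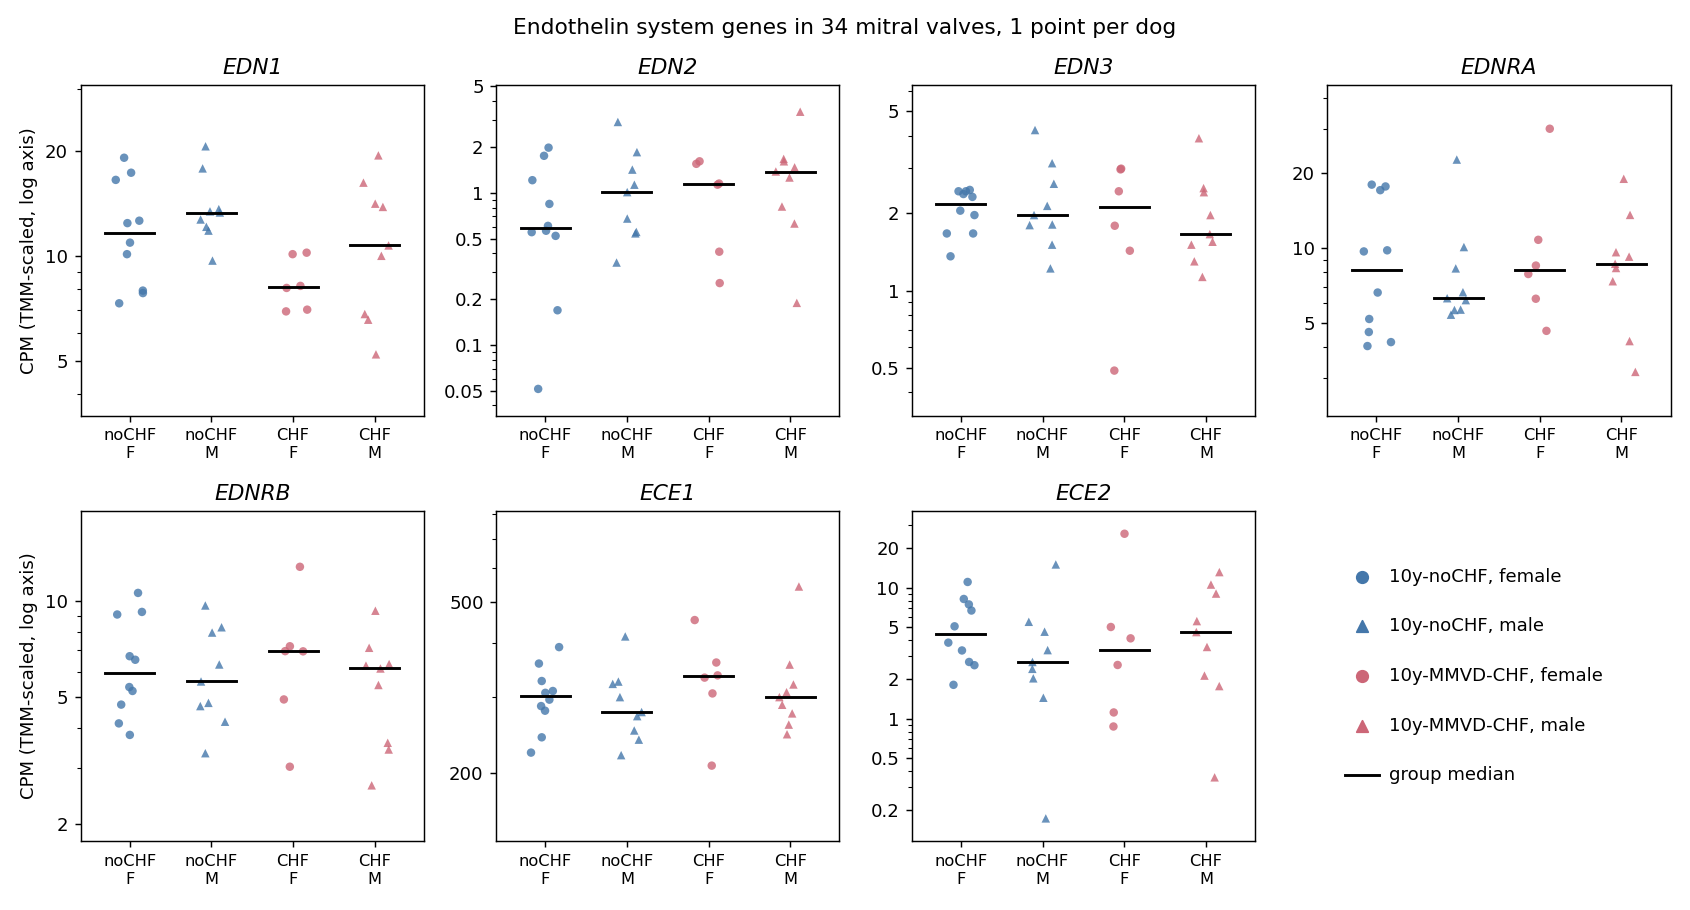
CPM of each gene (log axis, a scale of its own per panel), 1 point per dog, in females (F, circles) and males (M, triangles) without CHF (blue) and with CHF (red), with black lines at the group medians. The groups overlap in all 7 panels, and the 6 females with CHF have EDN1 between 6.92 and 10.2 CPM.

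**Figure D3:**
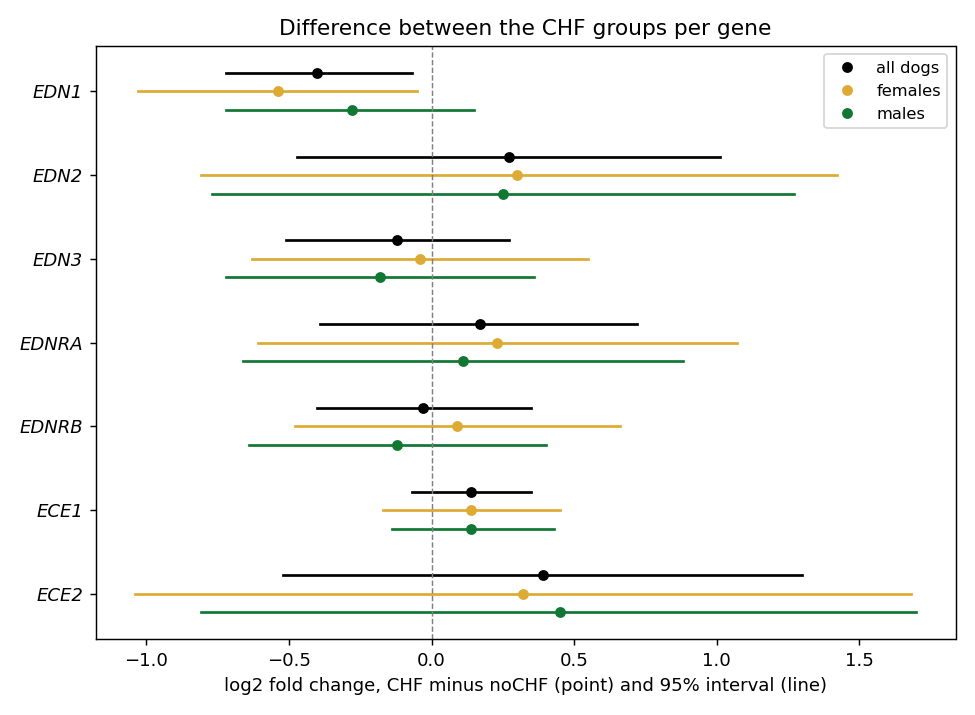
Log2 fold change of CHF minus noCHF from edgeR for each gene (points) with the 95% interval (lines), over all dogs (black), in females (yellow) and in males (green). Over all dogs only the interval of EDN1, -0.72 to -0.07, lies on 1 side of 0.

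No gene of the system passed the FDR of 0.1 between males and females (all FDR = 1), where 28 of 19568 features (0.143%) did, and 0 of 7 had an unadjusted p below 0.05, against 583 features (2.98%). As log2 fold change of males minus females, EDN2 had 0.47 (95% interval -0.27 to 1.22), ECE2 -0.30 (95% interval -1.20 to 0.61) and EDN1 0.29 (95% interval -0.03 to 0.62), and the other 4 genes lay between -0.23 and 0.06. For the interaction of CHF and sex edgeR called 0 features (0%), with 1178 at an unadjusted p below 0.05, and DESeq2 called 3. None of the 7 genes was among them.

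In 5 lists, 45 genes of endothelin processing, Gq signalling, receptor desensitisation, endothelial relaxing factors and EDN1 promoter factors were tested. None of the 45 passed the FDR of 0.1 between the CHF groups, and 3 (6.67%) had an unadjusted p below 0.05. The shares over all features were 0.118% and 6.31%. Of all features tested, 52.6% were higher in CHF. Among the 9 peptidases listed under endothelin processing and breakdown, 5 were higher and 4 lower (median of the log2 fold changes 0.002). The smallest p values there were those of KEL, a peptidase that can cut big EDN3, with 3.7 ± 1.6 CPM without and 2.42 ± 0.76 CPM with CHF (log2 fold change -0.61, FDR = 0.48), and of MME (neprilysin), which degrades endothelins, with 1.28 ± 0.669 and 2.18 ± 1.97 CPM (log2 fold change 0.82, FDR = 0.698). In the arm of Gq and phospholipase C, through which both receptors raise calcium, 9 of 14 genes were higher and none had a p below 0.05. GNAQ, the Gq subunit itself, had a log2 fold change of 0.22 (FDR = 0.813) and the calcium release channel ITPR2 of 0.18 (FDR = 0.848).

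Of the 6 kinases and arrestins that desensitise receptors, 5 were higher in CHF, with ARRB1 at a log2 fold change of 0.14 (FDR = 0.848) and GRK5 at -0.07 (FDR = 0.92). Of the 4 genes of endothelial relaxing factors 1 was higher, and the smallest p values were those of the prostacyclin synthase PTGIS, at -0.11 (FDR = 0.92), and the cyclooxygenase PTGS1, at -0.12 (FDR = 0.951). Of 12 transcription factors that act on the EDN1 promoter, 6 were higher and 6 lower. KLF4, an endothelial factor that responds to flow, had 109 ± 17.1 CPM without and 91.9 ± 25.2 CPM with CHF (log2 fold change -0.26, FDR = 0.696), and JUN had a log2 fold change of -0.15 (FDR = 0.867). The median log2 fold change of the 5 lists lay between -0.115 and 0.036, and that of all features tested was 0.0076.

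Relations between the genes were then examined over dogs, apart from CHF and sex. After the means of the 4 groups of CHF status and sex had been removed from log2 CPM, 2 of 21 pairs of genes passed an adjusted p of 0.05 for Pearson's r (two-sided permutation within groups, 100000 resamples, Benjamini-Hochberg over the pairs). EDNRA rose and fell with ECE2 (r = 0.727, rho = 0.753, both adjusted p = 0.00021) and with EDNRB (r = 0.627, adjusted p = 0.00252, rho = 0.599, adjusted p = 0.00462). Without the 2 dogs farthest from the median EDNRA, r was 0.628 and 0.551. In the 10y-noCHF and 10y-MMVD-CHF groups r was 0.665 and 0.793 for EDNRA with ECE2 and 0.498 and 0.757 for EDNRA with EDNRB. EDN2 ran against EDNRA (rho = -0.498, adjusted p = 0.0275, r = -0.437, adjusted p = 0.108) and against ECE2 (rho = -0.495, adjusted p = 0.0275, r = -0.377, adjusted p = 0.129), by rank only. The ligand EDN1 and its receptor EDNRA gave r = -0.365 (adjusted p = 0.181) and rho = -0.419 (adjusted p = 0.0925).

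Against the means of 8 lists of cell type markers, 16 of 56 relations passed an adjusted p of 0.05, and EDN1 had none of them. ECE2 followed the cardiomyocyte mean (r = 0.81, rho = 0.882) and so did EDNRA (r = 0.762, rho = 0.785), each with a p of 1e-05, the smallest that these permutations can give (adjusted p of r = 0.000112). Within the 23 dogs above the gap in the cardiomyocyte mean, r was 0.929 for ECE2 and 0.893 for EDNRA (both adjusted p = 0.00028). Within the 11 dogs below the gap it was 0.0298 for ECE2 (permutation p = 0.946) and 0.412 for EDNRA (permutation p = 0.357). In the 10y-noCHF and 10y-MMVD-CHF groups r was 0.727 and 0.928 for ECE2, and 0.731 and 0.81 for EDNRA. EDNRA with ECE2 had r = 0.86 above the gap (adjusted p = 0.00084) and 0.161 below it (permutation p = 0.776). The difference between the dogs above and below the gap was not tested.

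The same genes also followed other lists. EDNRA rose with the Schwann cell mean (r = 0.791, rho = 0.789, adjusted p of r = 0.000112) and the smooth muscle mean (r = 0.577, rho = 0.51, adjusted p of r = 0.00568), and fell with the mean of valve interstitial cell markers (r = -0.551, rho = -0.494, adjusted p of r = 0.0133). ECE2 had r = 0.708 with the Schwann cell and 0.584 with the smooth muscle mean. The smooth muscle list held DES, which varied as widely as the cardiomyocyte marker TNNT2 (711 ± 757 and 602 ± 744 CPM without CHF). Its relations were not separated by a test from those to cardiomyocyte markers. EDNRB, which is expressed by glia and smooth muscle as well as endothelium, had r = 0.5 with smooth muscle and 0.488 with Schwann cell markers (adjusted p = 0.0205 and 0.0206). Without CAV614 and CAV1047 these were 0.393 and 0.401 and no longer passed (adjusted p = 0.112 and 0.101). The Schwann cell list was low, with means of -1.12 to 3.6 log2 CPM. It was not independent of the cardiomyocyte list. CAV1047 had the highest mean of both lists (3.6 and 10.56) and CAV749 the lowest of both (-1.12 and -0.02). Whether the relations to Schwann cell markers are separate from those to cardiomyocyte markers was not tested.

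ECE1 followed the endothelium mean (r = 0.698, rho = 0.671, adjusted p of r = 0.000112, adjusted p of rho = 0.000784), with r = 0.82 in the 10y-noCHF and 0.597 in the 10y-MMVD-CHF group, and r = 0.827 without CAV614 and CAV1047. For EDN1, of which endothelium is the usual source, the relation did not pass (r = 0.224, rho = 0.09, adjusted p of r = 0.448), and r was -0.0101 without the dogs CAV1784 and CAV648. In the groups r was -0.118 without and 0.624 with CHF, a difference that was not tested. The endothelium list itself held 12 genes, of which 8 were higher and 4 lower in CHF. One of them, VWF, passed the FDR of 0.1, with 79.6 ± 50.4 CPM without and 205 ± 125 CPM with CHF (log2 fold change 1.40, FDR = 0.0678). The mean of the list ran from 4.76 to 5.67 log2 CPM without and from 5.19 to 6.2 with CHF. With the list mean, VWF included, as a covariate the log2 fold change of EDN1 was -0.49 (FDR = 0.57). With the cardiomyocyte mean it was -0.40 (FDR = 0.559). The endothelium covariate thus held a gene that itself differed with CHF, and a mean without VWF was not tried. The endothelium covariate moved the log2 fold change of ECE1 from 0.14 to 0.03 (FDR = 0.986), of EDNRA from 0.17 to 0.008 (FDR = 0.999), of ECE2 from 0.39 to 0.14 (FDR = 0.988), of EDN3 from -0.12 to -0.03 (FDR = 0.997), of EDNRB from -0.03 to -0.08 (FDR = 0.984) and of EDN2 from 0.27 to 0.58 (FDR = 0.834).

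For the other ligands, relations to valve interstitial and macrophage markers passed. EDN2 rose with the mean of valve interstitial cell markers (r = 0.562, rho = 0.576, adjusted p of r = 0.00865) and fell with the cardiomyocyte mean (r = -0.474, rho = -0.572, adjusted p of r = 0.0206). Within the 23 dogs above the cardiomyocyte gap its r with the interstitial markers was 0.497 (adjusted p = 0.123). EDN3 rose with the macrophage mean (r = 0.6, rho = 0.525, adjusted p of r = 0.00243), with r = 0.442 without and 0.841 with CHF, and r = 0.492 without CAV614 and CAV1047. Of the melanocyte markers, DCT and MLANA were below the minimum of 100 counts, and EDN3 had no relation with that list that passed (r = 0.0222). The mean of that list was -3.08 to -1.25 log2 CPM without and -3.04 to -1.41 with CHF, too low to measure melanocytes. ECE2 passed with the melanocyte list by r (0.486, adjusted p = 0.017) but not by rank (rho = 0.384, adjusted p = 0.0949).

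**Figure D4:**
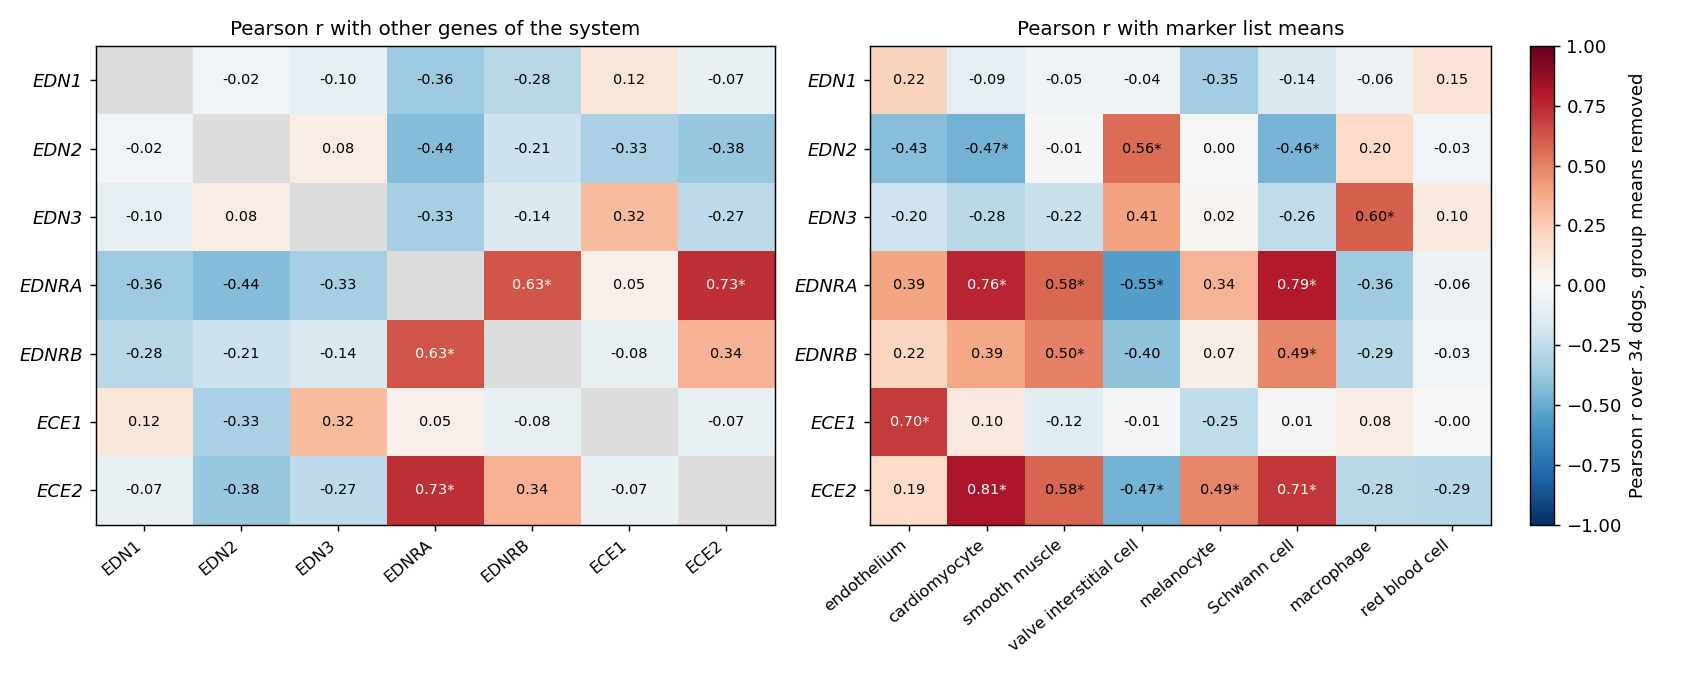
Pearson's r over 34 dogs on log2 CPM with group means removed, for each gene with the other 6 (left) and with the means of 8 marker lists (right), where an asterisk marks an adjusted p below 0.05. EDNRA and ECE2 share high r with the cardiomyocyte and Schwann cell lists, ECE1 has its highest r with endothelium (0.698), and the row of EDN1 holds no asterisk.

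**Figure D5:**
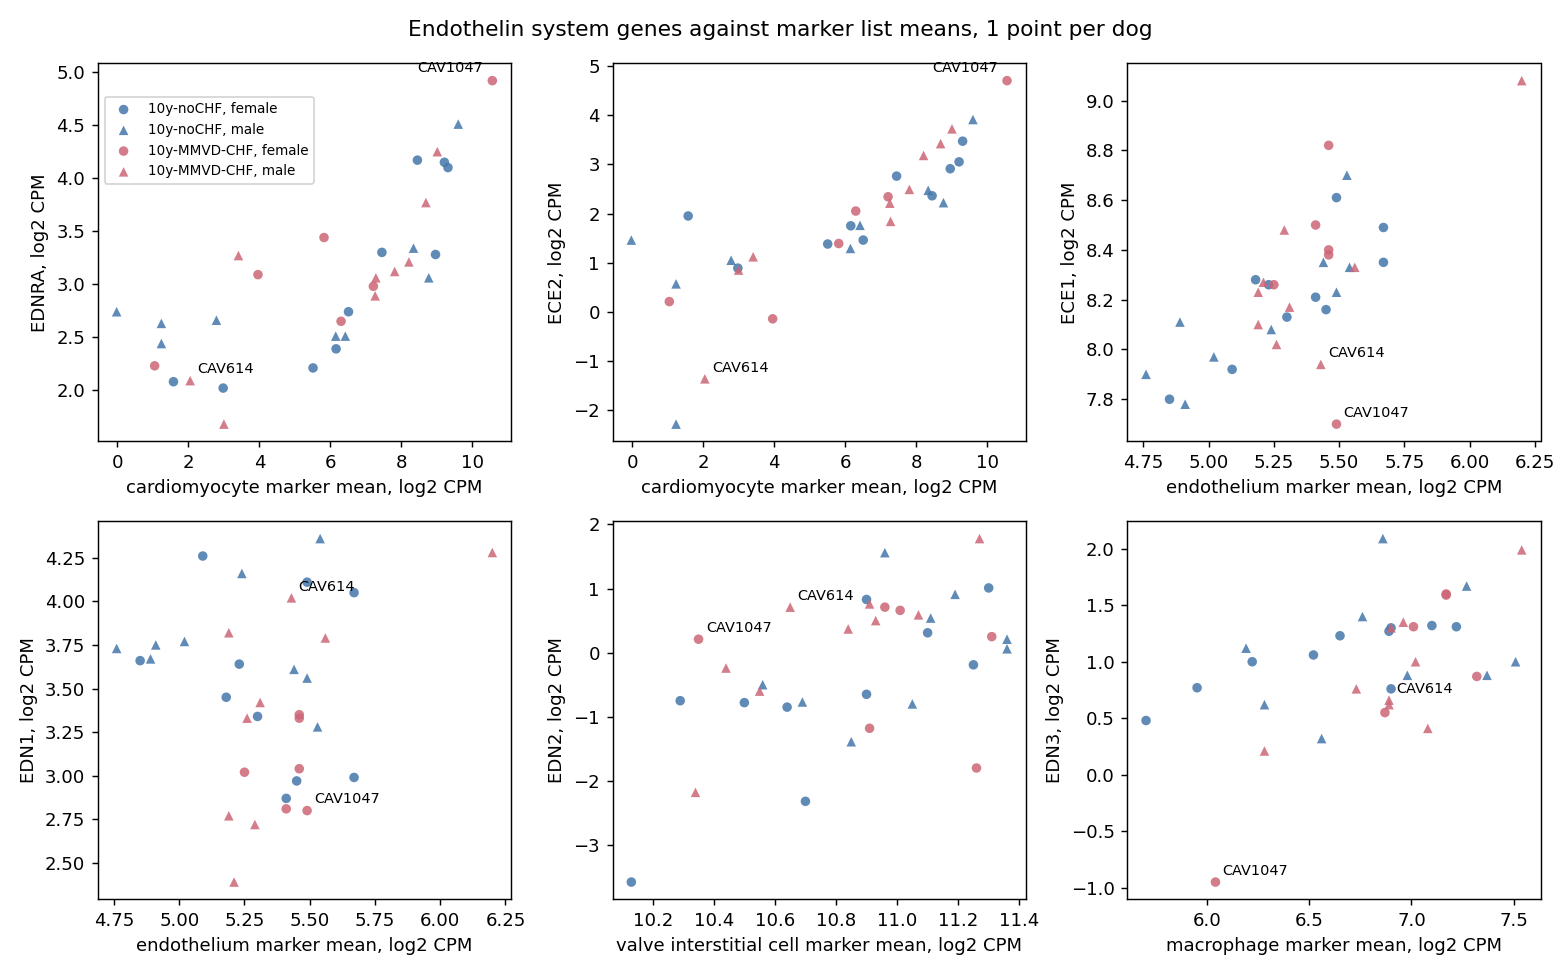
Log2 CPM of 6 gene and marker list pairs, 1 point per dog, with sex as the symbol and CHF as the colour and with CAV614 and CAV1047 named. Group means are not removed in these panels. EDNRA and ECE2 climb with the cardiomyocyte mean among the 23 dogs above the gap that ends at 5.51. ECE1 climbs with the endothelium mean. The points of EDN1 against endothelium, as drawn, have r = 0.0555 (0.224 with group means removed).

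The features most like each gene, by Spearman's rho over the 34 dogs with group means removed among 15107 features with a mean of at least 1 CPM, are given as a description. For ECE1 they were PECAM1 (0.796), TEK (0.774) and MMRN2 (0.77), which are known from endothelium, with PECAM1 and TEK also in the endothelium list. For EDN2 they were FRZB (0.866), a secreted WNT antagonist of cartilage and valve, BAP1 (0.822) and FZD9 (0.818), a WNT receptor. For EDN3 they were FCGRT (0.727), ATP2C2 (0.694) and STAB1 (0.685), of which STAB1 is a scavenger receptor of macrophages and sinusoidal endothelium. For EDN1 they were LDLRAD2 (0.735), DNASE1L2 (0.728) and SURF2 (0.717). EDNRA was nearest to LANCL3 (0.9), PRKAR2A (0.899) and USP24 (0.891). ECE2 was nearest to the overlapping EEF1AKMT4-ECE2 (0.984), to ADCY1 (0.939) and to the muscle enolase ENO3 (0.939), and EDNRB to the overlapping EDNRB-AS1 (0.915), to GPRC5B (0.847) and to FAM81A (0.804).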

How the data were processed

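Poly-A RNA of mitral valves from 34 dogs was sequenced as paired reads. Reads were aligned by the authors to canFam4 with STAR. The deposited raw counts come from featureCounts 2.0.3 and cover 2165 canine RefSeq and 21603 human XenoRefSeq features. A read was assigned to every feature it overlapped, without strand, and the mates of a pair were counted separately (72.7% of the counts of these genes above 0 were even). 1 column of counts that belongs to no labelled dog was not used.

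The 19568 features whose counts summed to 100 or more were tested with edgeR 4.0.16 in R 4.3.3 (quasi-likelihood, TMM, CHF and sex as terms, Benjamini-Hochberg FDR threshold 0.1). Standard errors were derived from the F statistic and are approximate. Log2 CPM used a prior count of 2. Relations used log2 CPM with group means removed, with dogs permuted within the 4 groups (100000 resamples, two-sided). The edgeR and relation steps were tested on simulated data. DESeq2 1.42.0, limma 3.58.1 voom, other scalings, filters, covariates and dogs left out were alternatives. Named were the 7 genes, in each pathway list the genes past the FDR or else the 2 with the smallest p, and the 3 most similar features per gene. VWF, DCT and MLANA were named outside this rule, after their values were seen. Members and lists were chosen with earlier results of these data known. Leaving out CAV614 and CAV1047 in the relations, the split at the cardiomyocyte gap and the relations of EDN1 to transcription factors were chosen after seeing the data. Results of 1 further pathway list are not reported here.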

Additional observations from a re-analysis of the deposited data

Results flagged for a closer look

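Among 28 combinations of gene and group of CHF status and sex, 2 held a dog far from the others by Dixon's test on log2 CPM, where chance gives 1.4 at 1 in 20. EDNRA of CAV865 was the highest of the 10y-noCHF males, at 22.7 CPM, and its gap to the next dog was 0.564 of the range of the group. ECE1 of CAV648 was the highest of the 10y-MMVD-CHF males, at 542 CPM, with a gap of 0.528 of the range. CAV865 also had the highest ECE2 without CHF (15.1 CPM) and a cardiomyocyte mean of 9.6, the highest of its CHF group, and CAV648 had the highest endothelium mean of all dogs (6.2). The part of muscle or endothelial content in these values was not tested.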

How the results depend on the processing

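No gene of the system passed the FDR threshold under any alternative, and the lowest adjusted p was 0.221 (EDN1, limma voom). EDN1 was lower in CHF in all 15 settings other than leaving out 1 dog, with log2 fold changes of -0.54 to -0.28, unadjusted p of 0.00162 to 0.219 and adjusted p of 0.221 to 1, and with each of the 34 dogs left out (-0.47 to -0.35). The log2 fold change of EDNRA turned to -0.03 without CAV614 and CAV1047 and that of ECE2 to -0.03, or to -0.08 with the cardiomyocyte covariate. EDN3 turned to 0.0005 with the human feature and EDNRB to 0.09 in females only. With single dogs left out the CHF log2 fold change ran from -0.08 to 0.34 for EDNRA, -0.12 to 0.69 for ECE2 (both lowest without CAV1047) and -0.14 to 0.04 for EDNRB, 0.07 (without CAV648) to 0.19 (without CAV1047) for ECE1, 0.12 (without CAV487) to 0.44 (without CAV901) for EDN2 and -0.21 (without CAV1784) to -0.03 (without CAV444) for EDN3, and the male minus female value from -0.03 to 0.13 for EDN3 and -0.61 to 0.19 for ECE2. Where a setting left out dogs, fewer samples entered the fit, and otherwise the cause was not tested.

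The number of features called for CHF was 64 with DESeq2, 13 without the sex term, 13 with the endothelium covariate, 9 at an FDR of 0.05, 0 in females only and 0 in males only (fewer dogs in both), and 8 to 28 with single dogs left out (8 without CAV1519 or CAV2102).

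Relations between genes that passed numbered 4 without CAV614 and CAV1047 and 0 in the dogs below the cardiomyocyte gap, and relations to marker lists 9 above and 0 below it, with only 23 and 11 dogs. In the dogs below the gap r turned to 0.263 for EDN2 with ECE2, 0.0906 for EDN2 with Schwann cell, -0.195 for EDN3 with macrophage, -0.12, -0.621 and 0.0218 for EDNRA with endothelium, EDNRA with smooth muscle and EDNRB with interstitial markers, -0.2, 0.264 and -0.226 for ECE2 with smooth muscle, interstitial and Schwann cell markers, and -0.135 for EDN1 with endothelium. With 11 dogs in 4 groups few permutations are distinct. TPM scales all genes of a dog by 1 factor, so it could not change their order and tests nothing. No paired analysis was possible because each dog has a number of its own. Depth limits EDN2 most, with 4 to 284 counts per dog.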

Other observations

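EDN1 was set against the 12 transcription factors of its promoter, a family of relations chosen after seeing the data. Over 34 dogs with group means removed, 3 passed an adjusted p of 0.05 by Pearson's r (two-sided permutation within groups). These were ARNT, the partner of hypoxia-inducible factors (r = -0.484, adjusted p = 0.0373, rho = -0.45, adjusted p = 0.0637), GATA2, an endothelial factor (r = 0.433, adjusted p = 0.0373, rho = 0.392, adjusted p = 0.0873), and GATA4, a cardiac factor (r = -0.418, adjusted p = 0.0373, rho = -0.354, adjusted p = 0.112). None of the 12 passed by rank. The largest rho in size was that of SMAD3 (-0.467, adjusted p = 0.0637), with r = -0.472 (adjusted p = 0.0517). Without CAV1784 and CAV648, the dogs farthest from the median EDN1, r was -0.41 for ARNT, 0.378 for GATA2, -0.339 for GATA4 and -0.484 for SMAD3. KLF4 had r = 0.612 with EDN1 in the 10y-noCHF dogs and -0.0143 in the 10y-MMVD-CHF dogs, a difference that was not tested (pooled r = 0.211, adjusted p = 0.413).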
